A study of Rattus norvegicus with 9 samples.

Results

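Fam111a, the rat gene of a nuclear protease, was 1 of the 22077 intact genes in the deposited expression table of rat peripheral blood mononuclear cells. It was chosen because its exon, unique exon and intron reads differed between the study's 3 groups, so its levels and fold changes are given as a description, with no test. In human cells, FAM111A is a trypsin-like serine protease that binds PCNA, the sliding clamp of DNA polymerases, and helps replication forks pass proteins crosslinked to DNA. Human FAM111A also restricts replication of some mutant forms of the monkey virus SV40. Certain human FAM111A variants cause Kenny-Caffey syndrome, a disorder of bone growth and parathyroid function for which TBCE is the other known gene.

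The 9 libraries came from wild-type Sprague-Dawley rats, with 3 libraries from normoxia at day 0, 3 from Sugen-hypoxia at day 28 and 3 from Sugen-hypoxia at day 56. Sugen-hypoxia combines an inhibitor of VEGF receptors with low oxygen and models pulmonary hypertension, and the study's title concerns the aryl hydrocarbon receptor (AHR) in that disease. The comparisons set each Sugen-hypoxia day against normoxia, and the later day against the earlier one. Normoxia was sampled at day 0 alone, so treatment, day and age cannot be told apart. The labels do not say whether replicates were separate animals, so the p-values below measure the spread between these libraries, which may be technical. In bulk blood RNA, fewer cells of a type and less RNA per cell cannot be told apart.

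Exon reads per library ranged from 22148400 to 39947430, and defining markers of T cells, B cells and monocytes were present in every group. Red cell RNA varied between libraries, with 5 genes of the globin loci taking 43.0% to 56.3% of exon reads in normoxia, 1.42% to 29.0% at day 28 and 40.5% to 44.4% at day 56. Intron reads made up 5.37% to 14.6% of the reads in genes in normoxia, 14.2% to 24.9% at day 28 and 11.9% to 16.9% at day 56. No pair of replicates agreed within sampling noise.

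Fam111a (ENSRNOG00000012067) lies on rat chromosome 1 between 229003960 and 229019527 in rn6, the build of the files. The positions are the table's own, in which the length of a 1-exon gene equals end minus start, so that 1 end of each interval is not counted. The table gives the gene 1 transcript of 3 exons with 3191 exon bases. The RefSeq promoter is shown because the results below concern how much RNA this gene gives and because the study's title names a transcription factor. It is taken from GRCr8, chr1:219065389-219065688, plus strand, and runs from 250 bases before the start to 50 after it. Capitals mark the letters CCAAT and GGGCGG on either strand, which were chosen after the sequence was seen.

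Fam111a promoter: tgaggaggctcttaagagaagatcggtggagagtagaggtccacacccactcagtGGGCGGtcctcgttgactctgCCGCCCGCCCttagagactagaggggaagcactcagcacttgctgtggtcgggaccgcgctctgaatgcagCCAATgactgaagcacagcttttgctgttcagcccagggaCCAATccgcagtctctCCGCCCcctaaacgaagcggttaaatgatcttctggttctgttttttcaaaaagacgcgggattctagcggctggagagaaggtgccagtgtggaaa

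The promoter held CCAAT 2 times and GGGCGG 4 times, counting a pair of GGGCGG matches that overlap. CCAAT was present in 37.5% and GGGCGG in 33.1% of the 33469 promoters of the same length in the RefSeq table. The letters GCGTG (the core that AHR binds), the interferon-stimulated response element, TTTNGCGC (E2F) and TTCNNNGAA (STAT) had 0 matches on either strand. These motifs were present in 29.7%, 3.92%, 1.28% and 8.87% of all promoters. The sequence was 55.3% G or C, with 15 CpG, against a median of 51.7% G or C over all promoters. A match is a run of letters and no evidence of binding, and no match says only that these letters are not in this window.

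Fam111a was a low gene in normoxia and a high one at both Sugen-hypoxia days. Its exon reads numbered 34, 90 and 69 in normoxia, 5933, 4925 and 7684 at day 28, and 3100, 2779 and 1569 at day 56. After scaling by TMM-adjusted library size, these were 1.42, 3.31 and 4.48 CPM (counts scaled to a common library size) in normoxia, 158, 125 and 246 CPM at day 28, and 116, 117 and 52.6 CPM at day 56. No library of either day came near a normoxia library: the lowest Sugen-hypoxia value, 52.6 CPM in day 56 replicate 3, stood against a highest normoxia value of 4.48 CPM. The levels were ordered day 28, then day 56, then normoxia, with group means of 3.07 ± 1.55 CPM in normoxia, 176 ± 62.4 CPM at day 28 and 94.998 ± 36.7 CPM at day 56 (SD, n = 3 each).

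At day 28 the mean CPM of Fam111a was 57.4 times that of normoxia, a log2 fold change of 5.86 (SE 0.53). At day 56 it was 31.0 times that of normoxia, a log2 fold change of 4.97 (SE 0.51). Among the 12447 genes that passed the filter on low counts, these were the 7th and the 14th largest log2 fold changes upward. In the day 28 comparison, 11.4% of genes had every day 28 value above every normoxia value, and 15.6% of genes had every day 56 value above every normoxia value. Fam111a was chosen on these contrasts, so nothing is read from its place among those genes.

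The days lay closer to each other than either lay to normoxia. The day 56 mean was 0.539 times the day 28 mean, a log2 fold change of -0.89 (SE 0.42). The 3 day 56 values were all below the 3 day 28 values, but the gap between 117 CPM at day 56 and 125 CPM at day 28 was small beside the spread within each day. Of all genes, 17.4% had every day 56 value below every day 28 value.

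**Figure D1:**
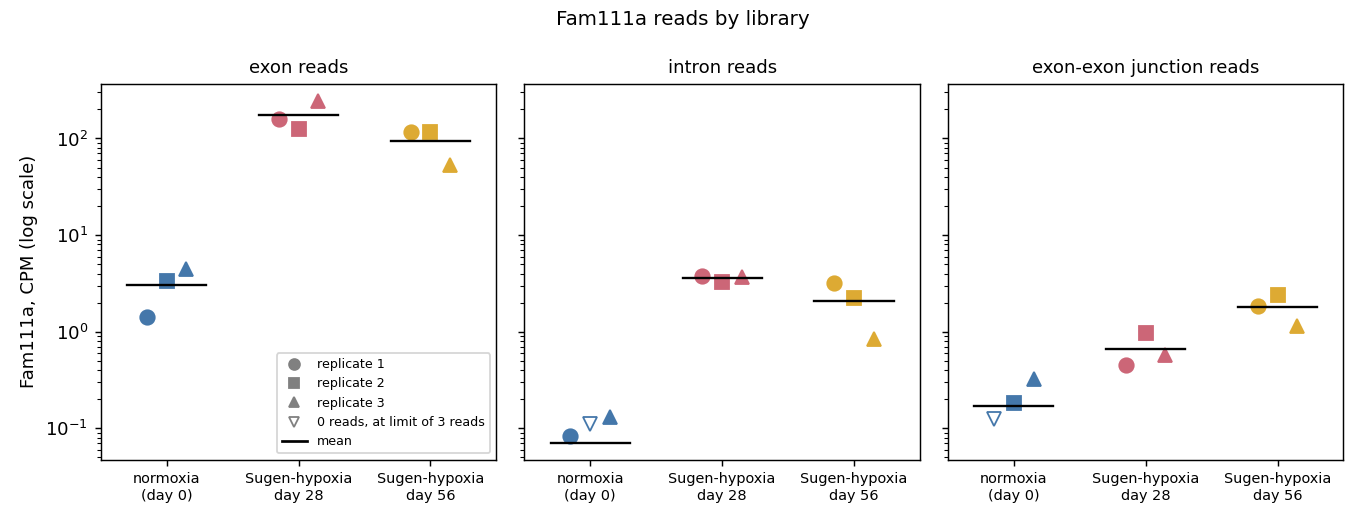
Fam111a exon reads, intron reads and exon-exon junction reads in CPM (log scale) for the 3 libraries of normoxia (day 0), Sugen-hypoxia day 28 and Sugen-hypoxia day 56. Lines are group means with a count of 0 taken as 0, and open triangles place a library with 0 reads at the level of 3 reads; exon and intron reads are highest at day 28, junction reads at day 56.

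Per exon length, Fam111a stood in the lower part of the genes with reads in normoxia and far up among them in Sugen-hypoxia. The authors' RPKM (reads corrected for exon length and sequencing depth) was 0.354, 0.618 and 0.719 in normoxia, 56.3, 43.1 and 72.6 at day 28, and 26.5, 27.5 and 11.8 at day 56. Ranked by RPKM among the genes with reads in each library, it was 11267th of 14581, 10106th of 14720 and 9734th of 14370 in normoxia. At day 28 it was 883rd of 15158, 1288th of 15188 and 538th of 14657. At day 56 it was 1353rd of 14931, 1365th of 14449 and 3160th of 14853. Day 56 replicate 3 had the lowest place of the Sugen-hypoxia libraries.

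How far the levels stood apart varied with the scaling. On the RPKM scale, which has no adjustment for the globin share, the mean was 57.4 ± 14.8 at day 28 and 21.9 ± 8.83 at day 56, against 0.564 ± 0.188 in normoxia (SD, n = 3 each). These means give ratios of 102 for day 28 over normoxia and 38.9 for day 56 over normoxia. With total exon reads in place of TMM factors, an alternative added after the data were seen, Fam111a had a log2 fold change of 6.91 at day 28 and 5.41 at day 56 over normoxia. That scaling also moved the median over all genes by 0.96 at day 28 and 0.29 at day 56 (log2). Relative to the median gene, Fam111a was higher by 5.96 and 5.16 on the log2 scale with total reads, and by 5.87 and 5.02 with TMM factors, at day 28 and day 56.

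In each of the 9 libraries, 100% of its exon reads were uniquely mapped. RefSeq lists a further protein-coding gene, Fam111al1, and a pseudogene, Fam111a-ps1, neither of which has a line of that symbol in the table. How reads of those copies were assigned was not tested, so reads of near-identical sequence in the count of Fam111a are uncertain. The sources used here do not state whether reads were counted by strand, so reads antisense to Fam111a cannot be told apart from its own.

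Intron reads of Fam111a were high in the same libraries as its exon reads. They numbered 2, 0 and 2 in normoxia, 141, 128 and 116 at day 28, and 85, 53 and 25 at day 56. The log2 fold change of intron reads was 5.25 (SE 0.68) at day 28 and 4.39 (SE 0.70) at day 56 over normoxia, and -0.86 (SE 0.43) for day 56 over day 28. The normoxia side of these folds rests on 4 reads in all.

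The share of introns in the Fam111a reads was about the same in every group and low beside the library as a whole. Pooled over the libraries of a group, introns held 2.03% of Fam111a reads in normoxia (exact Clopper-Pearson 95% interval 0.556% to 5.12%), 2.03% at day 28 (1.84% to 2.25%) and 2.14% at day 56 (1.83% to 2.49%). These intervals cover counting error only. Over all genes the intron share was 5.37% or more in every library, and it was higher at day 28, at 14.2% to 24.9%, than in normoxia, at 5.37% to 14.6%, except that normoxia replicate 1 lay above day 28 replicate 3. Its part in the level of Fam111a was not tested; fitted with that share as a term, which was added after the data were seen, the log2 fold change of Fam111a was 6.71 at day 28.

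Reads that cross an exon-exon junction, which come from spliced RNA, were few beside the exon reads. They numbered 0, 5 and 5 in normoxia, 17, 38 and 18 at day 28, and 50, 57 and 34 at day 56. Day 56 had more junction reads than day 28, although it had fewer exon reads. In CPM the means were 0.169 ± 0.163 in normoxia, 0.664 ± 0.268 at day 28 and 1.80 ± 0.63 at day 56 (SD, n = 3 each).

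The junction reads gave a smaller difference from normoxia and turned the order of the days. The mean junction CPM at day 28 was 3.92 times that of normoxia, and at day 56 it was 10.6 times that of normoxia. In a fit of junction reads over all genes, the log2 fold change of Fam111a was 2.00 (SE 0.73) at day 28 and 3.46 (SE 0.71) at day 56. For day 56 over day 28 it was 1.47 (SE 0.56), against -0.89 from all exon reads. These fits were added after the data were seen and are given with no test.

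As a share of exon reads, the junction reads of Fam111a were fewest at day 28. The share was 5.56% and 7.25% in normoxia replicates 2 and 3. In normoxia replicate 1 it was 0 of 34 exon reads, with an exact 95% interval that reaches up to 10.3%. It was 0.287%, 0.772% and 0.234% at day 28, and 1.61%, 2.05% and 2.17% at day 56. All 3 day 28 shares lay below all 3 day 56 shares. Pooled by group, the share was 5.18% in normoxia (exact 95% interval 2.51% to 9.32%), 0.394% at day 28 (0.309% to 0.495%) and 1.89% at day 56 (1.60% to 2.23%).

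Over whole libraries the junction share hardly varied, at 48.6% to 52.8% of exon reads. A gene with few and long exons has fewer junctions for its length, so Fam111a was set beside the other genes of 3 exons with at least 30 exon reads, of which there were 492 to 562 per library. Their median junction share was 15.2% to 17.4%. In normoxia 0%, 18.5% and 24.0% of those genes had a lower share than Fam111a, the first being the library with 0 junction reads. At day 28 the figures were 2.35%, 3.91% and 2.61%, and at day 56 they were 3.77%, 5.48% and 5.65%. These shares are a description, since they divide by the exon reads on which Fam111a was chosen. Exon lengths differ among the genes, and the sources used here give neither read length nor mapping settings.

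**Figure D2:**
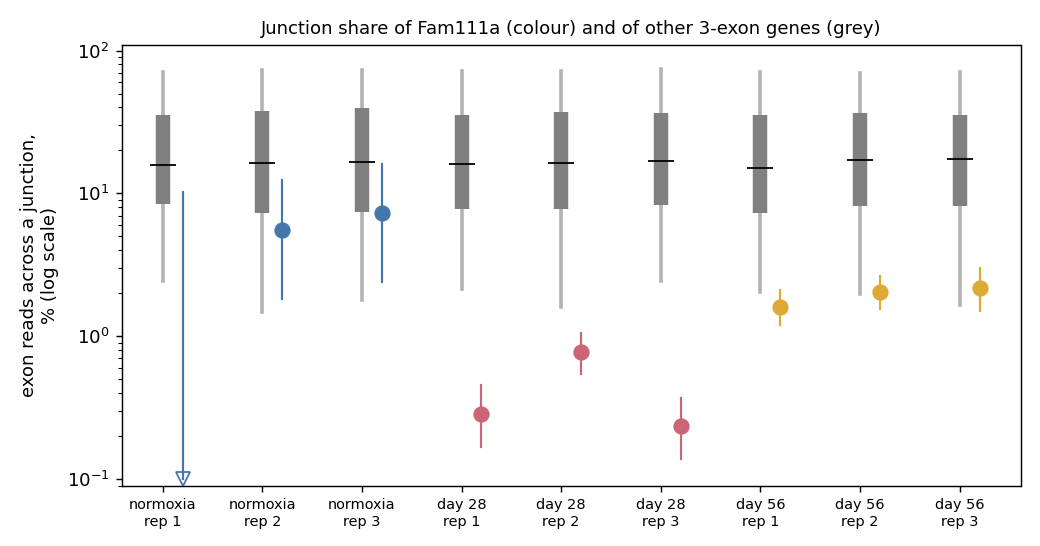
Share of exon reads that cross an exon-exon junction (percent, log scale) in each of the 9 libraries. Coloured points are Fam111a with exact 95% binomial intervals (the open triangle marks 0 of 34 reads), and grey bars show the other 3-exon genes with at least 30 exon reads (thick, middle 50%; thin, 5th to 95th percentile; black tick, median); the 3 day 28 points, at 0.234% to 0.772%, are the lowest above 0.

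The gap between exon and junction reads was also taken as a difference of fold changes. The log2 fold change of Fam111a from exon reads minus that from junction reads was 3.87 at day 28 over normoxia, 1.51 at day 56 over normoxia and -2.36 for day 56 over day 28. Over the 10728 genes in both fits this difference had a median of 0.02 at day 28 over normoxia, with 95% of genes between -0.41 and 0.34. At day 56 over normoxia the median was 0.01, with 95% of genes between -0.45 and 0.36. There, 8 genes, Fam111a included, had a difference at least as large in size as that of Fam111a. For day 56 over day 28 the median was -0.02, with 95% of genes between -0.35 and 0.34. In this comparison and at day 28 over normoxia, no other gene had a difference as large in size as that of Fam111a. The exon part of the difference is the contrast on which Fam111a was chosen, so its distance from the other genes is given as a description and nothing is read from it.

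**Figure D3:**
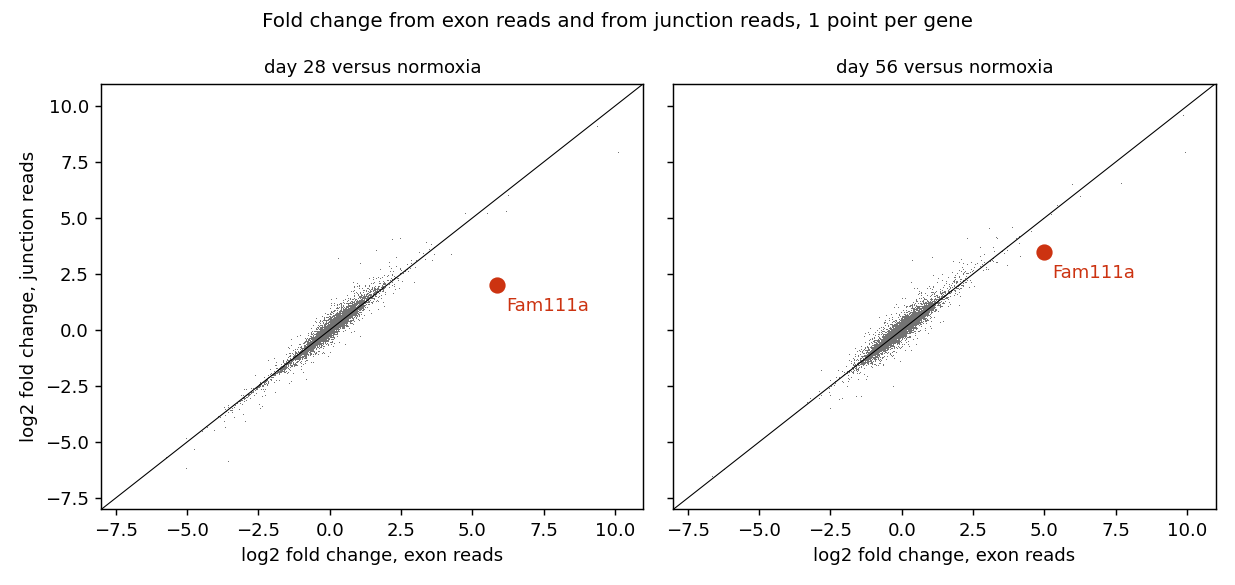
Log2 fold change from exon reads (horizontal) and from exon-exon junction reads (vertical) for the 10728 genes in both fits, at day 28 and at day 56 over normoxia, 1 point per gene with the line of equal values. Fam111a, in red, lies below the line at 5.86 and 2.00 at day 28 and at 4.97 and 3.46 at day 56.

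The genes nearest to Fam111a were mostly without reads. Of the 5 nearest genes on each side, Dtx4, a ubiquitin ligase of the Notch pathway, was the only gene that passed the filter, and it lies 248094 bases away. Dtx4 reads numbered 348, 378 and 183 at day 28 and 143, 156 and 135 at day 56, against 210, 112 and 61 in normoxia. Its log2 fold change was 0.55 (SE 0.34, adjusted p = 0.293) at day 28 and -0.04 (SE 0.34, adjusted p = 0.945) at day 56 over normoxia by the quasi-likelihood test of edgeR with Benjamini-Hochberg adjustment. Without normoxia replicate 1 Dtx4 passed at day 28, with a log2 fold change of 1.05. The other 9 genes, among them olfactory receptors and Glyatl1, a glycine acyltransferase gene 10705 bases away, had 0 to 5 reads in every library.

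Of the 21 tested genes within 2 Mb, a window added after seeing the data, 0 passed at day 28, against 0.129% of all genes. At an unadjusted p under 0.05, 9 of the 21 passed at day 28 (42.9%, against 28.8% of all genes). At day 56, 2 of the 21 passed, both lower, against 7.12% of all genes called in any direction and 3.7% called lower: Ms4a6e, of a family of membrane proteins, at -1.27 on the log2 scale (adjusted p = 0.026), and the unnamed gene AABR07006269.1 with -0.88 (adjusted p = 0.047). At an unadjusted p under 0.05, 14 of the 21 passed at day 56 (66.7%, against 30.9% of all genes). The log2 fold changes over the window ran between -1.29 and 1.81 at day 28 and between -1.69 and 1.88 at day 56. Their median at day 56 was -0.88, against -0.04 over all genes, and 5 of the 21 were above 0. Many of the 21 belong to the Ms4a family, which lies together on 1 side of Fam111a, so they are no set of unrelated genes. Among them is Ms4a1, which is also in the list of B cell markers summed below. The part of cell types in these differences was not tested.

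At each day over normoxia, genes of the replication fork, where human FAM111A works, had an unadjusted p under 0.05 at rates near those of all genes. Between day 56 and day 28 their rate was lower than that of all genes. At day 28 and between the days, so few of all genes were called that a count of 0 among 44 tells little. All 44 listed genes passed the filter. At day 28 over normoxia edgeR called 0 of 44, against 0.129% of all genes, and 12 of 44 (27.3%) had an unadjusted p under 0.05, against 28.8% of all genes. DESeq2 called 3 of 44, all lower, and 9.79% of its 16940 genes with a p-value. That base, used for every DESeq2 share below, includes genes that the edgeR filter left out, whereas every tested list member passed the filter. A list count and a DESeq2 share therefore do not rest on like sets of genes. Their median log2 fold change was -0.18, against -0.01 over all genes. Without normoxia replicate 1 the same fit called 17 of the 44 at day 28, 5 higher and 12 lower, where 45.2% of all genes were called. Pcna, the clamp to which human FAM111A binds, was at -0.14 on the log2 scale (SE 0.34, adjusted p = 0.793) at day 28 and -0.01 (SE 0.34, adjusted p = 0.987) at day 56.

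At day 56 over normoxia edgeR called 2 of the 44 replication fork genes (4.55%), 1 higher and 1 lower, against 7.12% of all genes, 3.42% higher and 3.7% lower. At an unadjusted p under 0.05 there were 12 of 44 (27.3%, against 30.9% of all genes). DESeq2 called 9 of 44, 4 higher and 5 lower, and 13.8% of its 16940 genes with a p-value. The median log2 fold change of the list was -0.09, against -0.04 over all genes. Fen1, the nuclease that trims flaps of Okazaki fragments, rose to 10.9, 10.8 and 10.99 CPM at day 56, against 5.83, 5.74 and 3.76 CPM in normoxia (log2 fold change 1.08, SE 0.22, adjusted p = 0.0238). Rfc1, the large subunit of the complex that loads PCNA, fell to 65.8, 62.1 and 49.3 CPM at day 56, against 83.2, 144 and 109 CPM in normoxia (log2 fold change -0.92, SE 0.21, adjusted p = 0.0368). Without normoxia replicate 1, 22 of the 44 were called at day 56, 10 higher and 12 lower, where 43% of all genes were called. The count was 0 without normoxia replicate 2 or 3 or any 1 of the day 56 libraries, and 1 without any 1 of the day 28 libraries. Between day 56 and day 28, 0 of 44 were called, against 0.546% of all genes, with 2 at an unadjusted p under 0.05 (4.55%, against 18.5% of all genes) and 0 by DESeq2. Rpa3, of the single-strand DNA binding complex RPA, had the smallest p of the list at day 28, at -1.22 on the log2 scale (SE 0.26, adjusted p = 0.0654).

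Repair of DNA-protein crosslinks, the other process of human FAM111A, gave no calls in the edgeR fit of the 9 libraries. Of 26 listed genes, 21 were in the table and all of these passed the filter. By edgeR 0 were called in each comparison, against 0.129% of all genes at day 28, 7.12% at day 56 and 0.546% between the days. At an unadjusted p under 0.05 there were 3 at day 28 (14.3%, against 28.8% of all genes), 6 at day 56 (28.6%, against 30.9%) and 0 between the days (against 18.5%). DESeq2 called 2, 3 and 0 of the list, against 9.79%, 13.8% and 6.27% of its 16940 genes with a p-value. Without normoxia replicate 1, 11 were called at day 28, 5 higher and 6 lower, and 12 at day 56, 5 higher and 7 lower, where 45.2% and 43% of all genes were called. Their median log2 fold change over the 9 libraries was -0.23 at each day over normoxia. Sprtn, the protease that is best known for cutting crosslinked proteins at forks, was at 0.56 on the log2 scale (SE 0.26, adjusted p = 0.194) at day 28 and 0.53 (SE 0.26, adjusted p = 0.201) at day 56. Top1, the topoisomerase that forms such crosslinks when trapped, had -0.23 (SE 0.15, adjusted p = 0.322) and -0.43 (SE 0.15, adjusted p = 0.0995) at these days.

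Antiviral restriction genes were listed because human FAM111A limits viruses. At an adjusted p under 0.05, the edgeR fit of all 9 libraries called them at day 56 over normoxia at a rate near that of all genes. In the other comparisons so few of all genes were called that a count of 0 tells little. Of 40 listed genes, 36 were in the table and 35 passed the filter. At day 28 over normoxia edgeR called 0 of 35, against 0.129% of all genes, with 12 at an unadjusted p under 0.05 (34.3%, against 28.8% of all genes). At day 56 over normoxia it called 3 of 35 (8.57%), 1 higher and 2 lower, against 7.12% of all genes, 3.42% higher and 3.7% lower. At an unadjusted p under 0.05 there were 15 at day 56 (42.9%, against 30.9% of all genes). The median log2 fold change at day 56 was -0.47, against -0.04 over all genes. Between the days edgeR called 0, against 0.546% of all genes, with 10 at an unadjusted p under 0.05 (28.6%, against 18.5%). Every day 56 value lay below every day 28 value for 16 of 35, against 17.4% of all genes, and above for 3, against 17.8%. DESeq2 called 4, 8 and 5 of the list in these comparisons, where it called 9.79%, 13.8% and 6.27% of its 16940 genes with a p-value. Of these members, 2, 1 and 1 were higher and 2, 7 and 4 lower. Without normoxia replicate 1, 20 were called at day 28, 25 at day 56 and 5 between the days, where 45.2%, 43% and 7.89% of all genes were called. Of these members, 9, 8 and 1 were higher and 11, 17 and 4 lower. Without day 28 replicate 3, 3 were called at day 28 and 3 between the days, where 3.07% and 2.08% of all genes were called. At day 56 over normoxia 0 were called without normoxia replicate 2 or 3 or day 56 replicate 2 or 3.

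Ifit1, an interferon-induced protein that binds viral RNA, was the member with the largest difference. It had 1192, 878 and 1225 reads at day 56, against 3, 4 and 7 in normoxia (log2 fold change 7.53, SE 1.40, adjusted p = 0.0198). At day 28 its reads were 288, 1040 and 8, so that 1 library stood at the normoxia level, and the log2 fold change of Ifit1, 5.70 (SE 1.36), missed the threshold (adjusted p = 0.0796). Fam111a, in contrast, was high in all 3 day 28 libraries. Eif2ak2, the kinase that halts translation on viral RNA, fell at day 56 (log2 fold change -1.20, SE 0.25, adjusted p = 0.0257). So did Smc6, of the SMC5/6 complex that silences viral DNA (log2 fold change -1.18, SE 0.25, adjusted p = 0.0265).

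Tbce, a tubulin-folding cofactor whose human counterpart is the other Kenny-Caffey gene, had 37.8, 39.5 and 32.9 CPM at day 28 and 37.5, 41.4 and 40.8 CPM at day 56, against 32.3, 72.7 and 69.9 CPM in normoxia. Its log2 fold change was -0.67 (SE 0.27, adjusted p = 0.149) at day 28 and -0.55 (SE 0.27, adjusted p = 0.195) at day 56. Normoxia replicate 1 lay just below the Sugen-hypoxia libraries and the other normoxia libraries lay above all of them.

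**Figure D4:**
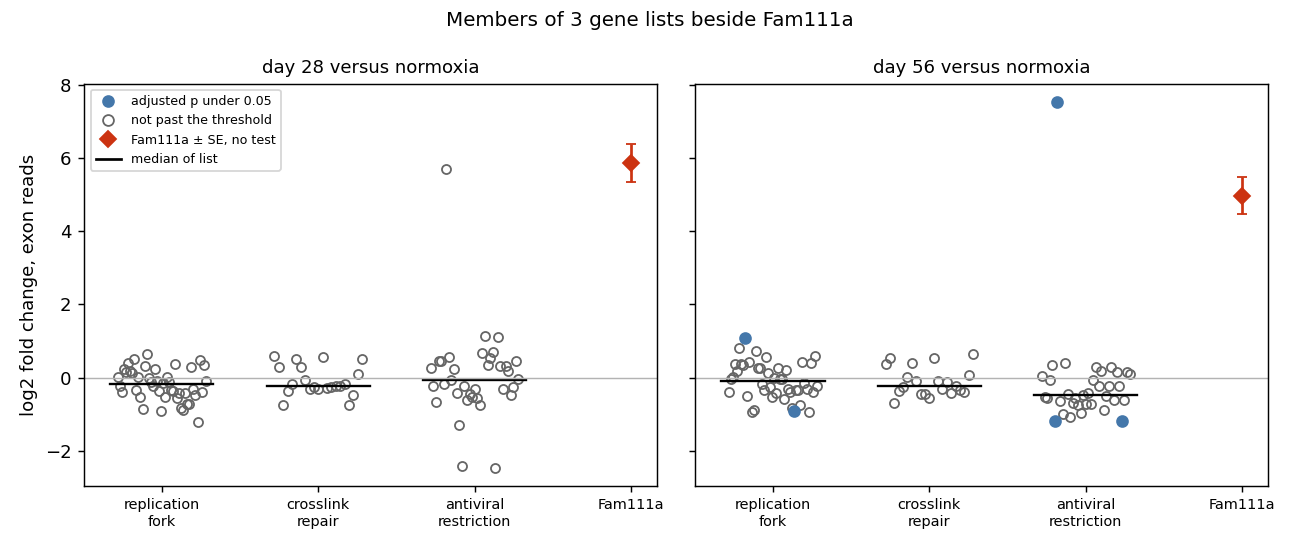
Log2 fold change from exon reads at day 28 and at day 56 over normoxia for the tested genes of the replication fork, crosslink repair and antiviral restriction lists, with Fam111a (red, ± SE, no test) at the right. Filled points had an adjusted p under 0.05, bars are list medians, and the high open point at day 28 and filled point at day 56 are Ifit1 at 5.70 and 7.53.

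The genes whose profile was most like that of Fam111a were found by the root mean square difference between log2 CPM profiles over the 9 libraries, each centred on its own mean. They were Ahrr, the repressor that AHR induces, at 0.763, Erp27, a member of the protein disulfide isomerase family in the endoplasmic reticulum, at 1.16, and Hic1, a transcriptional repressor, at 1.36. Thbd, the thrombin receptor thrombomodulin, followed at 1.43 and Jun, a subunit of AP-1, at 1.45. The median over 12446 other genes was 2.68, and a flat profile would lie at 2.65. The 9 libraries share their groups, so any gene low in normoxia and high at both days scores well. Ahrr had 0 reads in every normoxia library, so its centred value was the same there, -3.99, a floor set by the prior count of 2. Its distance from Fam111a, and so its place, depends in part on that setting.

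These 5 genes were low in normoxia at different levels. Ahrr exon reads numbered 246, 179 and 110 at day 28 and 86, 133 and 118 at day 56, against 0 in each normoxia library. Erp27 had 52.6, 36.6 and 38.2 CPM at day 28 and 65.4, 28.7 and 67.1 CPM at day 56, against 2.75, 4.01 and 3.18 CPM in normoxia. Jun reached 311, 362 and 376 CPM at day 56 and 154, 205 and 128 CPM at day 28, against 13.8, 37.4 and 29.7 CPM in normoxia, and unlike Fam111a it was higher at day 56 than at day 28 in every library. Hic1, Thbd and Jun have 1 exon in the table and so no junction reads to set beside those of Fam111a. Ahrr has 11 exons and had 199 junction reads over all libraries. Its log2 fold change from exon reads minus that from junction reads was 2.22 at day 28 and 2.00 at day 56 over normoxia. The same difference for Fam111a was 3.87 and 1.51. Ahrr had 0 exon reads in normoxia, which limits its folds. With Pearson correlation as the measure over the 9 libraries, 2 of the 5 stayed, Ahrr at 0.964 and Erp27 at 0.931, beside Gpr15, Farp1 and Slc25a30.

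**Figure D5:**
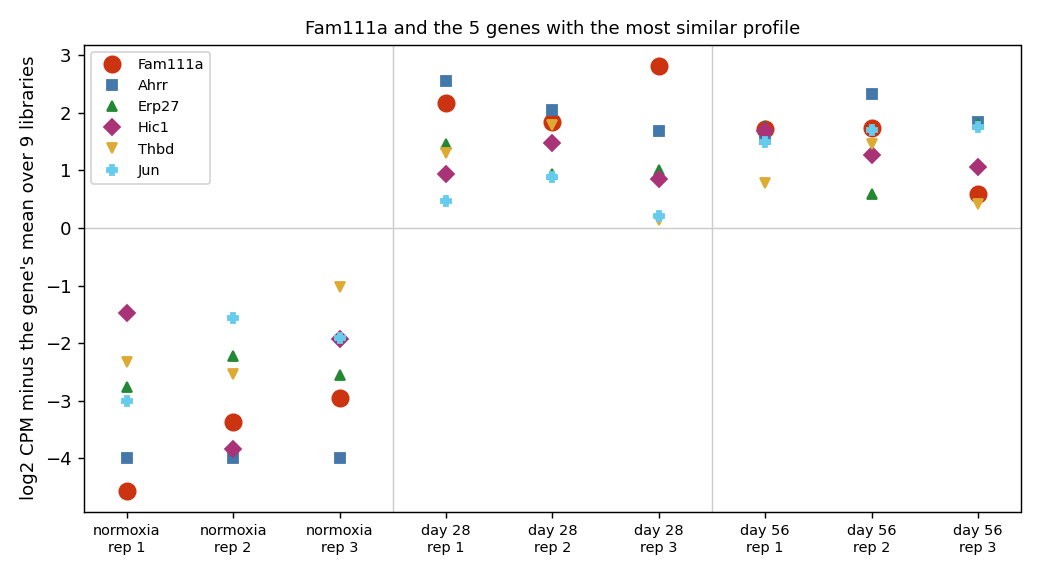
Centred log2 CPM (log2 CPM minus the mean of the gene over 9 libraries) of Fam111a and of the 5 genes with the smallest root mean square difference from it, for each library of normoxia, day 28 and day 56. All 6 genes lie below 0 in the 3 normoxia libraries and above 0 in the 6 Sugen-hypoxia libraries, Fam111a between -4.56 and -2.94 in normoxia.

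The summed levels of cell type markers also varied between groups. Summed over 9 detected monocyte markers, the level was 2029 to 4293 CPM in normoxia, 3088 to 9952 CPM at day 28 and 1601 to 2548 CPM at day 56. The 13 erythroid markers in the table summed to 3642 to 9559 CPM in normoxia, 137 to 2205 CPM at day 28 and 4220 to 4795 CPM at day 56, and the 10 platelet markers to 814 to 3575, 619 to 976 and 2055 to 4087 CPM in that order. The 11 neutrophil markers summed to 49.4 to 102 CPM in normoxia, 107 to 292 CPM at day 28 and 75.2 to 123 CPM at day 56, with Elane at 0 in the day 28 libraries. The 7 B cell markers summed to 993 to 1697, 546 to 1052 and 503 to 828 CPM in that order.

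T cell markers, 10 in all, differed less, at 1360 to 1530 CPM in normoxia, 1035 to 1618 CPM at day 28 and 1341 to 1698 CPM at day 56. The 9 NK and cytotoxic markers summed to 521 to 943, 355 to 734 and 857 to 1106 CPM in that order, and the 7 dendritic cell markers to 30.03 to 49.6, 36.9 to 48.0 and 33.6 to 38.1 CPM. Day 28 replicate 3, with the highest CPM of Fam111a, had the most erythroid marker RNA and the least monocyte marker RNA of its group. The part of these cell types in the level of Fam111a was not tested.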

How the data were processed

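Per gene and library, the deposited table of the whole series gives exon reads, uniquely mapped exon reads, exon plus intron reads, exon-exon reads and the authors' RPKM. The exon reads are headed expression values. The headers of these columns do not say raw counts, and the read columns were taken as counts because their values were whole on intact lines. Some deposited columns hold fractions on broken lines and are formally estimated counts; 8 broken lines (4 genes) were left out, all other values were whole and no rounding was needed. Reads were mapped to rn6 and checked with FastQC, per the submitters' processing notes; the aligner is not given in the sources used here. A further 72 columns of values per sample were not used.

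Intron reads were exon plus intron reads minus exon reads. The test on exon read counts was the edgeR 4.0.16 quasi-likelihood test (glmQLFTest; limma 3.58.1, R 4.3.3; robust fit, TMM factors, default filterByExpr) with 1 mean per group over 9 libraries. P-values were adjusted by Benjamini-Hochberg over 12447 genes, with a threshold of 0.05. CPM use TMM-scaled exon totals, and standard errors come from the F statistic. The common biological coefficient of variation was 0.280. The edgeR fit called 16 genes at day 28 over normoxia (3582 at an unadjusted p under 0.05), 886 at day 56 over normoxia (3846) and 68 between the days (2302). The fitting code was tested on simulated data.

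Profiles used log2 CPM with a prior count of 2. Intervals are exact Clopper-Pearson at 95%, and 3 reads is the limit that a count of 0 allows. Both cover counting error only, because without molecular identifiers several reads may come from 1 molecule. Of the table's genes, 16511 matched a RefSeq symbol of GRCr8, which was used for names, neighbours' names and the promoter only.

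Named genes were Fam111a, Tbce, the 5 nearest genes on each side, the 5 most like Fam111a, Pcna, Sprtn, Top1 and Smc6, and from each list up to 4 called genes per comparison, or the 2 with the smallest p where none was called. The members, lists and rules were chosen with earlier results of these data known. Alternatives were RLE factors, DESeq2 1.42.0, no filter, unique reads, a replicate block and leaving out each library; total-read scaling, junction reads, intron reads, the intron share as a covariate and the 2 Mb window were added after seeing the data.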

Additional observations from a re-analysis of the deposited data

How the results depend on the processing

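The direction of Fam111a over normoxia held in every alternative at both days. Its log2 fold change was 5.54 to 6.22 at day 28, 4.64 to 5.33 at day 56 and -1.09 to -0.57 for day 56 over day 28 when each library was left out. At day 28 over normoxia the covariate for intron share gave 6.71 and total exon reads gave 6.91; the second gave -1.50 for day 56 over day 28. From junction reads it was 2.00 at day 28 and 3.46 at day 56, and for day 56 over day 28 it turned to 1.47; the cause was not tested. Its intron share was the same from unique reads.

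Counts of calls over all genes moved far more. At day 28 over normoxia (16 in the fit reported) they were 8 with RLE factors, 1659 with DESeq2, 151 with no filter, 72 with unique reads, 1 with the covariate and 7130 (6981 higher, 149 lower) with total exon reads. At day 56 over normoxia (886) they were 2346 with DESeq2, 138 with the covariate and 145 (130 higher, 15 lower) with total exon reads. Between the days (68) they were 1062 with DESeq2 and 2600 (118 higher, 2482 lower) with total exon reads. Leaving out each library gave 2 to 5732, 85 to 5453 and 3 to 1002 calls in these comparisons; the highest values at each day over normoxia, 5732 and 5453, came without normoxia replicate 1.

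For the lists, leaving out each library gave at day 28, day 56 and between the days 0 to 17, 0 to 22 and 0 replication fork calls, 0 to 11, 0 to 12 and 0 crosslink repair calls, and 0 to 20, 0 to 25 and 0 to 5 antiviral calls. DESeq2 called 3 and 9 replication fork genes, 2 and 3 crosslink repair genes and 4 and 8 antiviral genes at day 28 and day 56, and 5 antiviral genes between the days. No filter gave 1 antiviral call at day 28 and 1 between the days, and unique reads gave 1 at day 28. Both gave 3 antiviral calls at day 56, as many as in the fit reported. Dtx4 was called without normoxia replicate 1 and with total exon reads (0 to 1 neighbour calls at day 28, 0 at day 56 and 0 between the days), and the 2 Mb window gave 2 at day 56. Each of the 5 list genes called at day 56 lost its call without normoxia replicate 2 or 3 and without day 56 replicate 2 or 3 (each left out alone). With total exon reads, Top1, Eif2ak2 and Pcna turned at day 28 over normoxia, to 0.76, 0.85 and 1.01. Each of these had an adjusted p under 0.05 by edgeR with that scaling. Other named genes also changed sign at day 28 in at least 1 alternative. Rfc1, Smc6 and Tbce, at -0.90, -0.49 and -0.67 in the fit reported, reached 0.14, 0.54 and 0.43. Pearson correlation kept 2 of the 5 most similar genes, and unique reads kept 4.

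Replicate numbers were shared between groups. With 3 libraries per group, the correlations that follow cannot settle whether these numbers pair the libraries. The correlations of same-numbered deviations were 0.17, -0.06 and -0.06 for day 28 and normoxia, 0.07, -0.15 and 0.15 for day 56 and normoxia, and 0.05, 0.16 and 0.07 for day 56 and day 28. With the replicate block, calls over all genes were 223, 540 and 186 in the 3 comparisons. The block gave 1 replication fork call at day 56. It gave 1 antiviral call at day 28, 3 at day 56 (1 higher and 2 lower) and 1 between the days.

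With 3 libraries per group, the normoxia level of Fam111a rests on 193 exon, 10 junction and 4 intron reads, which limits every fold on those reads.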
